A study of Mus musculus with 2 samples.

Results

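The genes described are 10 transcription factors that steer CD8+ T cells towards effector fates, namely Prdm1, Tbx21, Eomes, Id2, Zeb2, Bhlhe40, Nfil3, Irf4, Irf8 and Runx3. The genes were taken by symbol and gave 10 matches among 32285 annotated genes. The list itself was chosen with earlier results of these data known. RNA of single mouse CD8+ T cells from lymph node had been counted by the 10x 3′ method, in which a captured molecule is tagged for its cell and with a unique molecular identifier, the UMI counted here. There was 1 library labelled HC and 1 labelled NC. The series concerns matrix electrical stimulation, but the labels do not spell out either abbreviation, nor do they say which library was stimulated, and they give no strain, genotype, age, culture condition or number of animals. Cells were used if they had 500 or more genes, 1000 or more UMIs and 10% or less of their UMIs from mitochondrially encoded genes, which left 13617 of 15495 barcodes in HC and 13641 of 14798 in NC.

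CD8+ T cells that have met antigen divide and split into short-lived effectors, which carry granzymes, and memory precursors, which keep a quiescent programme around the factor TCF-1 (gene Tcf7). T-bet and Blimp-1 push cells towards the effector end, Id2 frees this programme by binding E proteins, and Runx3 is needed to establish the cytotoxic lineage itself. The interferon regulatory factors Irf4 and Irf8 relay antigen receptor and cytokine signals to the same genes.

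The kept cells had a median of 7425 UMIs in HC and 6898 in NC, and the libraries held 114430972 and 115789139 UMIs in all. Between the libraries 49 kept barcodes were the same. All 5 CD8 T cell markers (Cd8a, Cd8b1, Cd3e, Cd3d and Trac) were present, with 315689 UMIs in HC and 368445 in NC, whereas Cd4 had 2 and 1 UMIs. Of the other marker lists, the 3 natural killer genes summed to 16 UMIs in HC and 11 in NC, the 5 dendritic cell genes to 164 and 123 with Siglech and Clec9a at 0, and the 5 macrophage genes to 348 and 753 with C1qa at 0 and Lyz2 at 0 in HC and 416 in NC. The 5 B cell genes summed to 1886 UMIs in HC and 4103 in NC, the 3 plasma cell genes to 88 and 274, the 3 helper T cell genes to 626 and 456, and the 3 gamma-delta T cell genes to 12237 and 14582, nearly all of it Trdc. Because there was 1 library per group, no test was possible, and every interval below is an exact 95% interval for counting error only, as UMIs and cells of 1 library are not replicates.

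Levels are UMIs summed over the kept cells per 1000000 UMIs (CPM). CPM are not divided by gene length, so they are compared between libraries and not between genes. In such sums, fewer cells with a gene and less RNA per cell cannot be told apart. A gene was counted as higher or lower when it differed at least 1.5-fold and reached 5 CPM in either library. By this rule 2 of the 9 measured members were higher in HC, Prdm1 and Nfil3, and 0 were lower, against a background of 1.93% higher and 1.47% lower among all 8704 measured genes. On the log2 scale the median of HC over NC was 0.02 for the 9 members and -0.03 over all measured genes.

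Prdm1, which encodes the repressor Blimp-1 that drives terminal differentiation, had the widest gap among the 10. It had 690 UMIs in HC and 254 in NC, or 6.03 CPM (5.59 to 6.50) and 2.19 CPM (1.93 to 2.48), a 2.75-fold higher level in HC (2.38 to 3.19). The counting intervals of the libraries lay far apart. Plasma cells also express Prdm1. The plasma cell genes Jchain, Mzb1 and Sdc1 summed to 88 UMIs in HC and 274 in NC, and barcodes with B cell transcripts held 1 of the Prdm1 UMIs in HC and 7 in NC; the part of such cells in the Prdm1 gap was not tested. Nfil3, a basic leucine zipper repressor tied to the circadian clock and to innate lymphoid development, had 922 UMIs in HC and 590 in NC, or 8.06 CPM (7.55 to 8.59) and 5.10 CPM (4.69 to 5.52). Its log2 ratio was 0.66 (0.51 to 0.81), just past the 1.5-fold line. It fell short of that line at 0.50 when cells with a UMI of Mki67 at full depth were left out. Such cells were 69.2% of HC cells and 53.4% of NC cells.

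Bhlhe40, a basic helix-loop-helix repressor that sustains cytokine output and mitochondrial fitness in T cells, lay just short of the same line. It had 3792 UMIs in HC and 2576 in NC, or 33.1 CPM (32.1 to 34.2) and 22.2 CPM (21.4 to 23.1), with a log2 ratio of 0.57 (0.50 to 0.65). Its intervals did not overlap, and its ratio crossed 1.5-fold under 4 of 13 other ways of processing. Runx3, which silences Cd4 and upholds Cd8 in the cytotoxic lineage, had 281 CPM in HC (278 to 284) and 218 CPM in NC (215 to 220), a log2 ratio of 0.37 (0.35 to 0.39) that stayed between 0.31 and 0.43 under the same 13.

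Eomes, a T-box factor like T-bet that supports memory and cytokine receptor expression, was the only member at least 1.5-fold lower in HC, but it stayed under 5 CPM in both libraries and so was not counted. It had 190 UMIs in HC and 363 in NC, or 1.66 CPM (1.43 to 1.91) and 3.14 CPM (2.82 to 3.47), with a log2 ratio of -0.92 (-1.18 to -0.66). Natural killer cells also express Eomes, and their defining markers were near 0, with Ncr1, Klrb1c and Klra8 summing to 16 UMIs in HC and 11 in NC and Ncr1 at 1 UMI in HC and 0 in NC. Zeb2, a zinc finger repressor that acts with T-bet in terminal effectors, had 5.77 CPM in HC (5.34 to 6.23) and 6.89 CPM in NC (6.42 to 7.39), with a log2 ratio of -0.26 (-0.41 to -0.11). That ratio was -0.03 without cells holding a UMI of the receptor-triggered genes Nr4a1, Nr4a3, Egr1 or Egr2. It was -0.55 without cells holding a UMI of Mki67 at full depth. Macrophages express Zeb2 too. Of their 5 markers, Lyz2 had 0 UMIs in HC and 416 in NC, whereas Cd68 had 347 and 333. Csf1r had 1 and 2, Adgre1 had 0 and 2, and C1qa had 0 in both. The part of Lyz2-bearing material in the Zeb2 gap was not tested.

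The remaining 4 factors had nearly the same level in both libraries, and each of their intervals for the log2 ratio spanned 0. Tbx21, which encodes T-bet, the T-box factor of type 1 effector cells, had 21.8 CPM in HC (20.9 to 22.7) and 22.5 CPM in NC (21.6 to 23.4), with a log2 ratio of -0.05 (-0.13 to 0.03). Id2, the inhibitor of E proteins, had 52.2 CPM in HC and 53.3 CPM in NC, with a log2 ratio of -0.03 (-0.08 to 0.02). For Irf4, which partners with BATF downstream of the antigen receptor, the ratio was 0.01 (-0.05 to 0.07) at 35.1 CPM in HC and 34.9 CPM in NC. For Irf8, its close relative, it was 0.02 (-0.03 to 0.08) at 46.3 CPM in HC and 45.6 CPM in NC. These intervals exclude a 1.5-fold difference between these 2 libraries, but say nothing of how further libraries would vary.

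**Figure D1:**
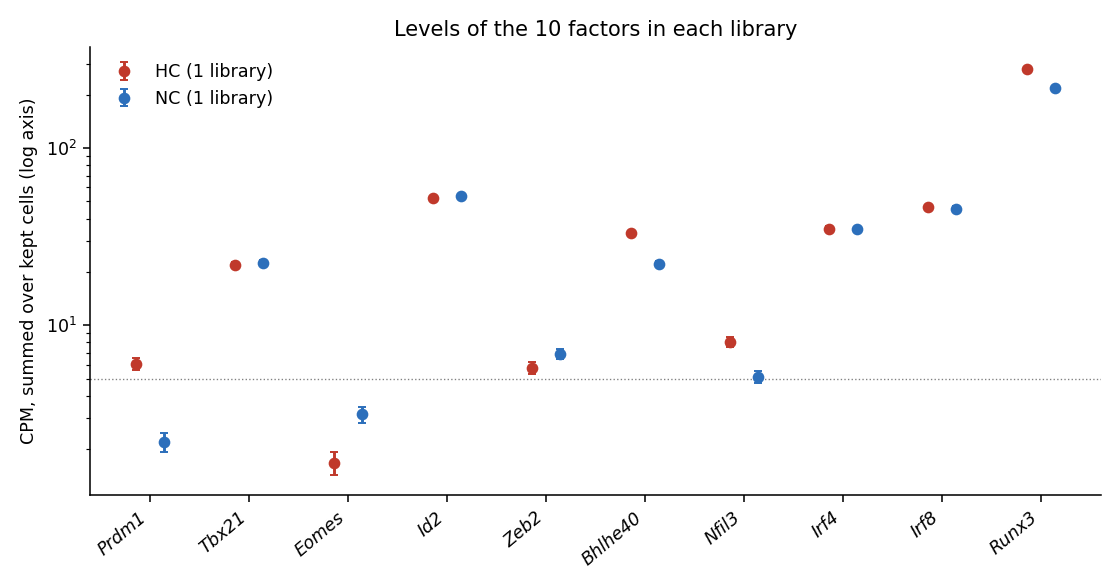
Levels of the 10 factors in UMIs per 1000000 UMIs (CPM, log axis) in the HC and NC libraries, with exact 95% counting intervals as bars. Prdm1, Nfil3, Bhlhe40 and Runx3 are higher in HC and Eomes and Zeb2 lower, while Tbx21, Id2, Irf4 and Irf8 are nearly level.

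Promoter windows are shown for the members that differed most by HC over NC and for Runx3, whose family can bind its own gene. They are RefSeq windows of build GRCm38.p6, from 250 bases before to 50 bases after an annotated start site, and all members but Bhlhe40 had at least 1, giving 14 windows over 9 genes. Gene bounds in brackets are those of GENCODE vM21 on the same build. Capitals mark exact matches, on either strand, to the motifs searched. The motifs were chosen after the levels were seen. The hypoxia response element was searched by its core ACGTG or its other core form, GCGTG. The E-box bound by BHLHE40 is CACGTG, which contains the first of those cores, and that bound by E proteins is CAGCTG. A RUNX site was taken as TGTGGT, a T-box site as AGGTGTGA and an NFIL3 site as TTACGTAA. The tandem IRF motif and the BLIMP-1 motif, which is a case of the IRF motif, were also searched.
Prdm1, chr10:44458699-44458998, minus strand, inside the gene (chr10:44437177-44528501): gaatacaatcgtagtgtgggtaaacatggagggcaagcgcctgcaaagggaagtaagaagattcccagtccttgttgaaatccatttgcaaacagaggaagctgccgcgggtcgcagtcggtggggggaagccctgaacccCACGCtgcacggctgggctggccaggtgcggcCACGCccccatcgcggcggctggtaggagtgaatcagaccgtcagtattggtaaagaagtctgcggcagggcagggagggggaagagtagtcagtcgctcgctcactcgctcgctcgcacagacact
Nfil3, chr13:52980990-52981289, minus strand, at the start of the gene (chr13:52967209-52981073): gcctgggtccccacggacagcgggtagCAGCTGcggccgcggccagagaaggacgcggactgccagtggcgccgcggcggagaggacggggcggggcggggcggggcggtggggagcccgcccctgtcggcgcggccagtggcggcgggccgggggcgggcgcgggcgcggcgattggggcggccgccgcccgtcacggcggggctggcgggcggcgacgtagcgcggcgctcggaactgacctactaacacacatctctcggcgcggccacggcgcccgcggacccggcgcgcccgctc
Eomes, chr9:118477939-118478238, plus strand, at the start of the gene (chr9:118478212-118486132): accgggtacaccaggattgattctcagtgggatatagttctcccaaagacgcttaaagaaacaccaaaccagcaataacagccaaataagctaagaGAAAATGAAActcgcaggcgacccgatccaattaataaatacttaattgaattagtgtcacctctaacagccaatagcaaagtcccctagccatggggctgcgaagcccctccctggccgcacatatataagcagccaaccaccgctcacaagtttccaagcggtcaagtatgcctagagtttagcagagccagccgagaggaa
Runx3, chr4:135120395-135120694, plus strand, at the start of the gene (chr4:135120652-135177990): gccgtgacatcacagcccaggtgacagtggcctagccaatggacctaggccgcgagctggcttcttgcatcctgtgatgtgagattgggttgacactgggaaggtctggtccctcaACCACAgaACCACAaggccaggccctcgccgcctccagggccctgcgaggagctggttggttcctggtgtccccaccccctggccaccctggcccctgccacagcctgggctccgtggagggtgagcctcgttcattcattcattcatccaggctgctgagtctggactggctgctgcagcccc

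In the Prdm1 window, GCGTG matched the opposite strand 109 and 77 bases before the start site, a motif that 32.4% of all 32851 windows hold. The Nfil3 window held CAGCTG 223 bases before its start (16.3% of all windows), and the Eomes window held the tandem IRF motif 154 bases before its start (3.44%). The Runx3 window shown held TGTGGT on the opposite strand 134 and 126 bases before its start (16.8%). Runx3 has 2 windows, and the other, inside the gene, matched none of the motifs searched. The BHLHE40 E-box, held by 7.15% of all windows, the T-box site (1.28%), the NFIL3 site (0.119%) and the BLIMP-1 motif (0.253%) matched none of the members' 14 windows. The core ACGTG is in 19.6% of all windows and was not in the 4 shown. Among windows not shown, GCGTG also matched in Irf4, Irf8 and Zeb2, ACGTG in Irf8, and CAGCTG in Tbx21 and Id2. Of these genes, Irf4, Irf8, Tbx21 and Id2 had nearly the same level in both libraries. A match describes letters in the window and not binding.

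To compare shares of cells at equal depth, each cell was thinned to 2000 UMIs, which left out 94 shallower cells in HC and 133 in NC. Each factor then showed in a minority of cells. Runx3 was seen in 42.6% of HC cells (41.8 to 43.4) and 35.0% of NC cells (34.2 to 35.8), and unthinned in 82.1% and 71.8%. Prdm1 was seen in 1.05% of HC cells (0.885 to 1.24) and 0.363% of NC cells (0.269 to 0.479), with 1 UMI in nearly every such cell, and unthinned in 4.47% and 1.63%. Of the 10 factors, 7 had a higher share in HC, among them Bhlhe40 at 5.66% against 4.26% in NC, Nfil3 at 1.52% against 0.992%, Irf4 at 6.43% against 5.83% and Irf8 at 7.68% against 7.09%. How many of all genes were seen in a higher share of HC cells was not computed. Eomes, at 0.281% in HC and 0.540% in NC, Zeb2, at 1.13% and 1.32%, and Id2, at 9.41% and 10.5%, had a lower share in HC. The order of the closest pairs depended on the draw. In a second random thinning Id2 turned over (9.42% in HC and 9.37% in NC), as did Tbx21 (4.07% and 4.16%), Irf8 stood at 7.22% in both, and 6 factors had a higher share in HC. At 4000 UMIs Tbx21 was at 8.11% in HC and 8.20% in NC. Barcodes with B cell transcripts, 1 in HC and 12 in NC, served as cells that should lack T cell genes. In NC, unthinned, a UMI of Irf8 was in 12 of these 12, Runx3 in 8, Irf4 in 6, Bhlhe40 in 5, Id2 in 4 and Zeb2 in 3. Prdm1 and Tbx21 were each in 2, Eomes and Nfil3 in 0 and Cd8a in 7. These 12 barcodes had a median of 13508.5 UMIs against 6895 in the other cells. They held 1.19% of the Irf8 UMIs in NC. With Cd8a in 7 of the 12, whether they hold T cells as well as B cells was not tested, and their shares were not read as background.

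Counting the factors cell by cell at this depth, 38.9% of HC cells and 45.3% of NC cells showed none of the 10. A cell showed 0.798 factors on average in HC and 0.698 in NC, 3 or more were seen in 303 HC cells (2.24%) and 256 NC cells (1.90%), and no cell showed more than 5.

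Cells were then divided by a thinned UMI of Gzmb, which encodes the cytotoxic protease granzyme B. It was present in 4820 HC cells (35.6%) and 3258 NC cells (24.1%). In HC, 2 of 9 measured factors were at least 1.5-fold higher in cells with Gzmb, Prdm1 and Bhlhe40, where 0.786% of all genes were. In NC, 2 of 8 were, Bhlhe40 and Zeb2, where 0.649% of all genes were. Prdm1 had the steepest contrast in both libraries. It reached 9.61 CPM with Gzmb and 3.61 CPM without in HC, a log2 ratio of 1.41 (1.18 to 1.64), and 4.08 CPM with and 1.53 CPM without in NC, a log2 ratio of 1.42 (1.05 to 1.79). In NC it did not reach 5 CPM and was therefore not counted. In HC, 64.1% of Prdm1 UMIs lay in the cells with Gzmb, which were 35.6% of cells. Cells with Gzmb were deeper, at a median of 8462.5 UMIs against 6964 without in HC, and 7427.5 against 6821.5 in NC. CPM are scaled to that depth, and the part of depth in these contrasts was tried only through other ways of setting the classes.

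Bhlhe40 had 43.3 CPM with Gzmb and 26.3 CPM without in HC (log2 ratio 0.72, 0.62 to 0.81), and 29.6 and 19.6 CPM in NC (0.59, 0.47 to 0.71). Zeb2 had 9.49 CPM with Gzmb and 5.95 CPM without in NC (0.67, 0.46 to 0.88), whereas in HC it had 6.30 and 5.41 CPM (0.22, -0.01 to 0.44). Eomes followed the same order as Zeb2, with a log2 ratio of 0.80 (0.48 to 1.11) in NC and 0.41 (-0.02 to 0.83) in HC, under 5 CPM throughout. Tbx21 was level, at 0.07 (-0.05 to 0.18) in HC and 0.00 (-0.13 to 0.13) in NC, and Runx3 was slightly lower in cells with Gzmb, at -0.11 in both. The NC counts depended on how Gzmb was scored: with classes set at 4000 UMIs or without thinning, 0 members passed 1.5-fold in NC, with Bhlhe40 at 0.57 and 0.55.

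The same cells were laid out by their number of Gzmb UMIs, a division made after the levels had been seen. Prdm1 went along 3.61, 6.94, 11.4, 15.9 and 15.1 CPM in HC for 0, 1, 2, 3 to 4 and 5 or more Gzmb UMIs, and along 1.53, 3.12, 5.44, 5.71 and 9.19 CPM in NC. Bhlhe40 climbed over the same steps through 26.3, 36.1, 47.2, 56.3 and 72.3 CPM in HC and 19.6, 27.1, 27.9, 42.9 and 46.7 CPM in NC. Runx3 declined through 290, 281, 266, 238 and 223 CPM in HC and 222, 213, 203, 180 and 154 CPM in NC. Tcf7, the memory factor, dropped through 264, 189, 125, 80.0 and 46.4 CPM in HC and 291, 214, 152, 88.2 and 42.9 CPM in NC. Prdm1 and Bhlhe40 were thus higher, and Runx3 and Tcf7 lower, in the top step than in cells without Gzmb in both libraries, although the top step held only 198 cells in HC and 100 in NC, with Prdm1 at 35 and 12 UMIs. Prdm1 and Bhlhe40 were not the only factors with a higher level there. Irf8 had 74.4 CPM in the top step against 43.5 CPM in cells without Gzmb in HC, and 91.2 against 42.4 CPM in NC. Irf4 likewise had 59.4 against 31.7 CPM in HC and 44.4 against 34.2 CPM in NC. Zeb2 had 9.46 against 5.41 CPM in HC and 28.4 against 5.95 CPM in NC, where its top step rested on 37 UMIs. Nfil3, Eomes, Id2 and Tbx21 were higher in the top step too, at 13.3, 2.15, 65.4 and 24.9 CPM in HC and 6.90, 8.43, 60.5 and 29.1 CPM in NC, against 7.38, 1.46, 50.4 and 21.4 CPM in HC and 4.58, 2.63, 52.3 and 22.5 CPM in NC in cells without Gzmb. So 9 of the 10 factors had a higher level in the top step in both libraries, with Runx3 the exception. How many of all genes did so was not computed, and the small differences of Tbx21 and Id2 are given without intervals. Eomes rested on 5 UMIs there in HC and 11 in NC.

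**Figure D2:**
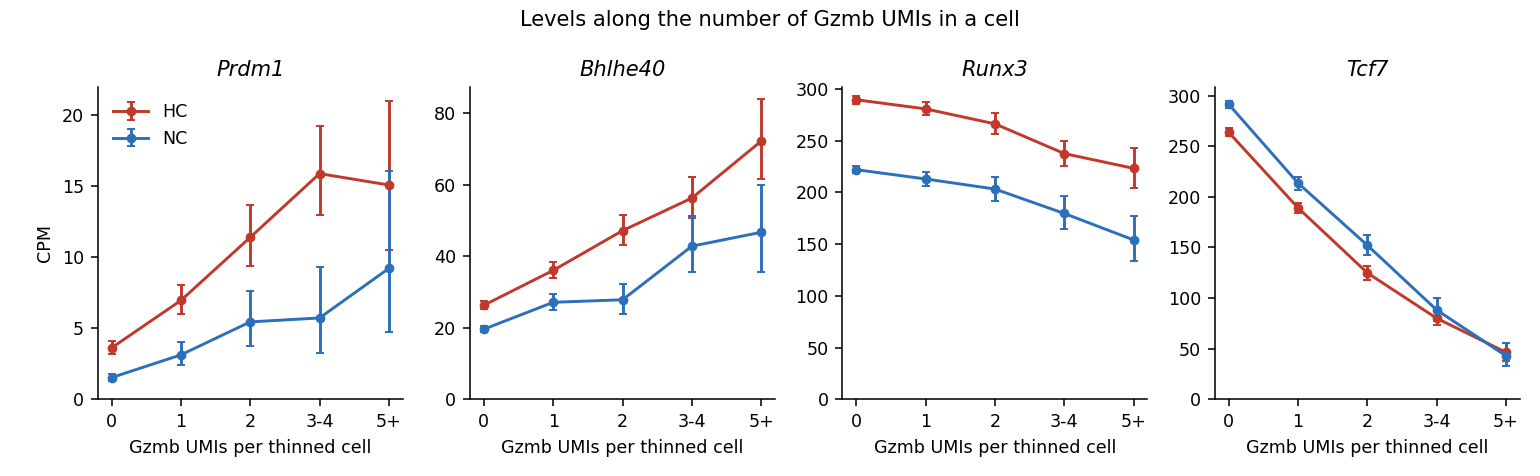
Level in CPM (UMIs per 1000000 UMIs) of 4 genes chosen after their values were seen, by the number of Gzmb UMIs in a cell thinned to 2000 UMIs, in HC and NC, with exact 95% counting intervals. Prdm1 and Bhlhe40 are higher and Runx3 and Tcf7 lower in the cells with most Gzmb, in both libraries.

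Mki67, the proliferation marker Ki-67, was present in 6302 HC cells (46.6%) and 4333 NC cells (32.1%) after thinning. At full depth it was seen in 69.2% of HC cells and 53.4% of NC cells. Those larger groups were the ones left out for the Nfil3 and Zeb2 ratios above, so the classes here differ from them. None of the 9 members measured in HC and none of the 8 in NC was 1.5-fold higher or lower in cells with Mki67, where 5.08% of all genes were higher and 0.634% lower in HC, and 6.17% higher and 1.39% lower in NC. Prdm1 was again the member furthest above 0, at 6.75 CPM with Mki67 and 5.19 CPM without in HC (log2 ratio 0.38, 0.16 to 0.60) and 2.79 and 1.81 CPM in NC (0.62, 0.26 to 0.99). Runx3 was lower in cells with Mki67, at -0.18 (-0.22 to -0.15) in HC and -0.22 (-0.26 to -0.18) in NC. Bhlhe40 was too, at -0.12 (-0.21 to -0.02) in HC and -0.24 (-0.35 to -0.12) in NC, the opposite of its sign with Gzmb. Cells with Mki67 had a median of 8763.5 UMIs against 6274 without in HC, and 9564 against 6314 in NC.

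Bnip3, a mitochondrial autophagy receptor induced under low oxygen, was present in 898 HC cells (6.64%) and 232 NC cells (1.72%). In HC, 1 of 9 measured members was at least 1.5-fold higher in cells with Bnip3, against 1.46% of all genes. That was Bhlhe40, at 54.3 CPM with Bnip3 and 31.5 CPM without (log2 ratio 0.79, 0.64 to 0.93). Irf8 stood at 66.7 and 44.7 CPM (0.58, 0.45 to 0.71) and Nfil3 at 11.2 and 7.79 CPM (0.52, 0.19 to 0.83), both short of the line. Prdm1, at 8.53 and 5.82 CPM, was short of it too, while Runx3 had 277 and 281 CPM. The median log2 ratio of the 9 measured members was 0.46, beside -0.02 for all genes. In NC, 0 of 8 were higher, against 3.03% of all genes, and 0 lower, against 2.36%, but the cells were few and the intervals wide, with Bhlhe40 at 28.6 CPM with Bnip3 and 22.1 CPM without (0.37, -0.03 to 0.74) and Irf8 at 43.6 and 45.6 CPM (-0.07, -0.38 to 0.23).

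**Figure D3:**
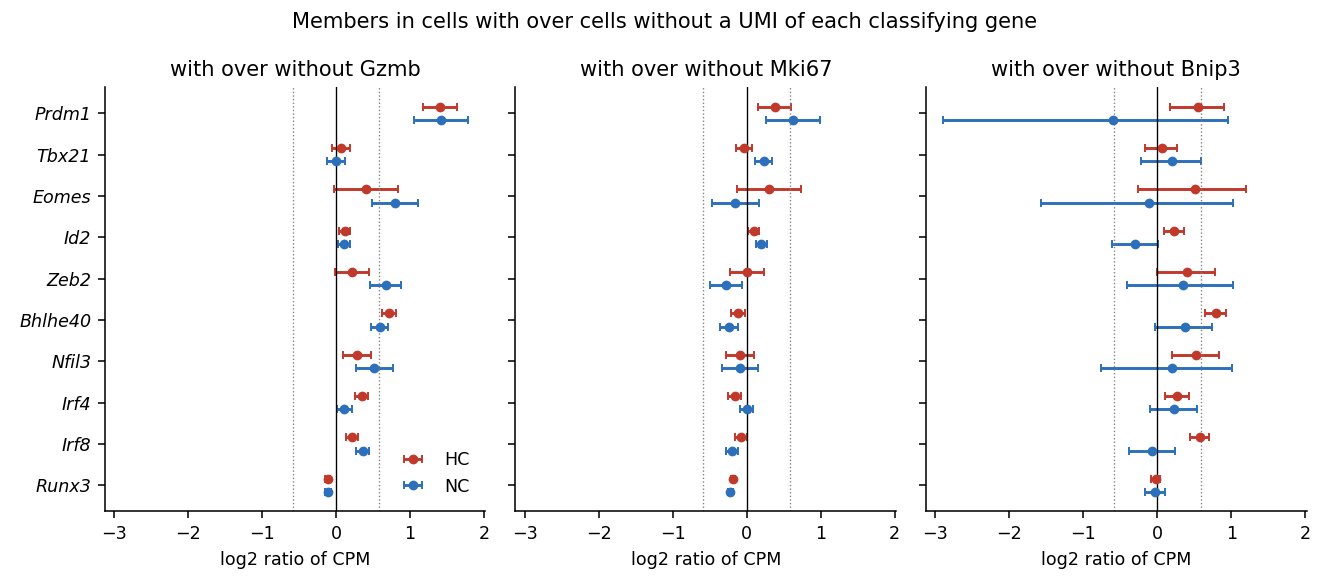
Log2 ratio of each factor's CPM in cells with over cells without a UMI of Gzmb, Mki67 or Bnip3, in HC and NC, with exact 95% counting intervals. Dotted lines mark 1.5-fold. The Prdm1 ratio for Gzmb, 1.41 in HC and 1.42 in NC, stands furthest right, and the Bnip3 panel has wide NC intervals because only 232 NC cells had Bnip3.

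Because HC held more cells with each of these 3 genes, the libraries were also compared within each class. The classes rest on thinned UMIs and do not give the libraries equal levels of the 3 genes. At full depth Gzmb was seen in 64.6% of HC cells and 49.7% of NC cells, and Bnip3 in 21.8% and 6.92%. Among thinned cells with Gzmb, 38.2% in HC and 29.7% in NC had 2 or more of its UMIs. Prdm1 remained higher in HC in all 6 classes. Its log2 ratio was 1.23 (0.94 to 1.53) with Gzmb and 1.24 (0.93 to 1.56) without, 1.28 (0.98 to 1.57) with Mki67 and 1.52 (1.21 to 1.83) without, and 2.55 (0.95 to 4.87) with Bnip3, from 71 UMIs in HC and 3 in NC, and 1.40 (1.18 to 1.61) without. Runx3 kept a ratio of 0.37 to 0.42 in each class. Eomes was lower in HC in each, from -1.24 (-1.64 to -0.85) in cells with Gzmb to -0.35 (-1.73 to 1.26) in cells with Bnip3.

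In cells with Gzmb, 1 of 9 measured members was higher in HC (Prdm1) against 2.11% of all genes, and 1 was lower (Zeb2, 6.30 CPM in HC and 9.49 CPM in NC, -0.59, -0.83 to -0.35) against 1.82%. In cells without Gzmb, 1 of 8 measured members was higher in HC (Nfil3) against 1.88% of all genes, and 0 were lower against 1.84%. There Zeb2 had a ratio of -0.14 (-0.33 to 0.06), and the difference of the 2 ratios was not tested. In cells with Mki67, 3 of 9 were higher in HC (Prdm1, Bhlhe40 and Nfil3) against 1.80% of all genes, and in cells without it 2 of 9 were (Prdm1 and Nfil3) against 2.34%. In cells with Bnip3, 4 of 9 were higher in HC, namely Prdm1, Bhlhe40, Nfil3 and Irf8, against 6.75% of all genes, and 0 were lower, against 9.24%. Irf8 had 66.7 CPM in HC cells with Bnip3 and 43.6 CPM in such NC cells (0.61, 0.29 to 0.95), but 44.7 and 45.6 CPM without Bnip3 (-0.03, -0.09 to 0.03).

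Crossing the 3 genes gave 8 classes, of which 5 held at least 100 cells in both libraries. Prdm1 was higher in HC in 5 of 5, with log2 ratios of 0.90 to 1.36, and Eomes lower in 5 of 5, at -2.00 to -0.80, but for each the counting interval was clear of 0 in 4 of 5. In the class with a UMI of Bnip3 alone, Prdm1 rested on 5 UMIs in HC and 1 in NC (0.90, -2.26 to 6.47) and Eomes on 2 and 3 (-2.00, -5.59 to 1.12). Bhlhe40 (0.32 to 1.34), Nfil3 (0.44 to 0.67) and Runx3 (0.36 to 0.45) were above 0 in 5 of 5, with an interval that spanned 0 in 1 class for Nfil3. In the cells with no thinned UMI of the 3 genes, 4397 in HC and 6967 in NC, Prdm1 had 2.67 CPM in HC and 1.30 CPM in NC. Such cells can still hold these genes at full depth. When both libraries were given the same mix of the 8 classes, the Prdm1 ratio was 1.18 in place of 1.46. That mix evens the shares of the classes and not the levels of the 3 genes within a class.

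**Figure D4:**
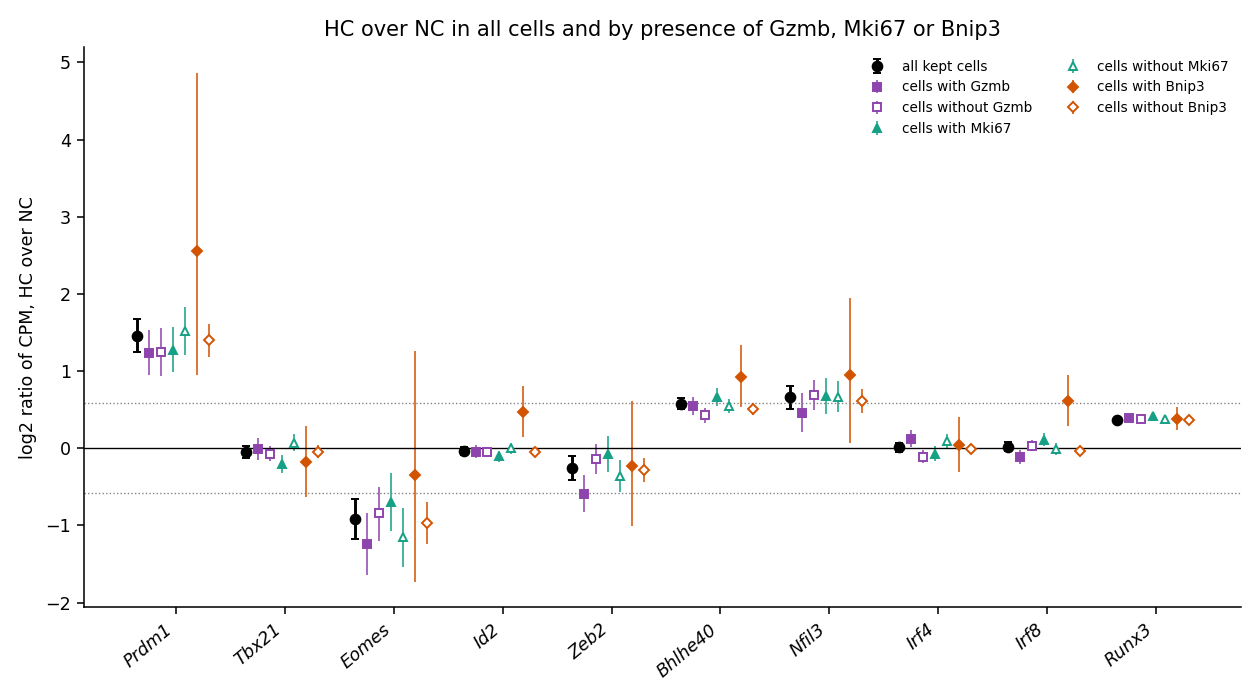
Log2 ratio of HC over NC for each factor within the cells with and without Gzmb, Mki67 or Bnip3, with exact 95% counting intervals. Prdm1 is above 0 and Eomes below it in each class, Runx3 stays at 0.37 to 0.42, and Zeb2 reaches -0.59 only in cells with Gzmb among the 6 classes.

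Co-detection asked whether a cell with one factor had another more often than the 2 shares would give if they were independent. Over the 45 pairs the median ratio of observed to independent cells was 1.04 in HC and 1.06 in NC, with 24 and 27 pairs above 1. In HC the interval lay above 1 for Bhlhe40 with Irf4 (67 cells against 49.2, ratio 1.36, 1.05 to 1.73) and for Bhlhe40 with Irf8 (78 against 58.9, 1.33, 1.05 to 1.65), and below 1 for Irf4 with Runx3 (328 against 370, 0.89, 0.79 to 0.99). In NC it lay above 1 for 5 pairs, of which 4 included Irf8. These were Irf8 with Bhlhe40 (59 cells against 40.9, 1.44), with Irf4 (78 against 55.9, 1.40), with Tbx21 (51 against 37.0, 1.38) and with Zeb2 (24 against 12.6, 1.90), besides Bhlhe40 with Nfil3 (13 against 5.71, 2.28). The HC ratios of these pairs were also above 1, at 1.33, 1.12, 1.32, 1.62 and 1.38, so no pair can be said to mark 1 library. Tbx21 and Eomes, the T-box pair, shared 3 cells in HC against 1.55 and 1 in NC against 2.82, too few to read. The pairs share cells and depth, and no correction for their number was made. How many pairs of other genes lay above 1 was not computed, so these counts are not particular to the factors.

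Against genes that read out fate, Prdm1 was found with Tcf7 less often than by independence in HC, where 22 cells held both and 51.6 would by independence (ratio 0.43, 0.27 to 0.65). In NC 12 cells held both where 19.5 would, and the interval spanned 1 (0.62, 0.32 to 1.08). Prdm1 was not alone in this. Irf4 was below 1 with Tcf7 in both libraries (0.86, 0.76 to 0.97 in HC, and 0.87, 0.77 to 0.98 in NC). So were Bhlhe40 in HC (0.76, 0.66 to 0.87) and Irf8 in NC (0.90, 0.80 to 0.998). With Il2ra, the high-affinity interleukin-2 receptor chain, Prdm1 had a ratio of 2.04 (1.29 to 3.06) in HC and, from 4 cells, 1.61 (0.44 to 4.13) in NC. In both libraries Bhlhe40 (1.68 in HC, 1.96 in NC), Irf4 (1.54, 1.38) and Irf8 (1.36, 1.86) were found with Il2ra more often than by independence, with intervals above 1. Zeb2 was so in NC (2.44, 1.53 to 3.70) but not in HC (0.91, 0.45 to 1.62). Irf8 was found with Prf1, the pore-forming protein perforin, at 1.82 (1.23 to 2.59) in HC and 1.60 (1.09 to 2.27) in NC. Runx3 went the other way, with ratios to Tcf7 of 1.08 (1.03 to 1.12) in HC and 1.11 (1.06 to 1.16) in NC, and to the interleukin-7 receptor gene Il7r of 1.07 (1.02 to 1.11) in HC and 1.13 (1.08 to 1.18) in NC. With Il7r, Irf8 was below 1 in HC (0.88, 0.79 to 0.98) and NC (0.87, 0.78 to 0.97), as was Irf4 in NC (0.86, 0.76 to 0.97). Eomes shared 7 NC cells with Prf1 where 1.48 would by independence. Nfil3 was above 1 with Prf1 in HC (2.45, 1.06 to 4.84, from 8 cells) but not in NC (0.74, 0.09 to 2.67, from 2). Tbx21 was found with Ifng, interferon gamma, at 4.60 (1.69 to 10.0) in HC, from 6 cells, and 2.43 (1.21 to 4.35) in NC, from 11. Eomes shared 2 HC cells with Ifng, at 22.2 (2.69 to 80.3). In NC the intervals for Ifng also lay above 1 for Irf8 (2.65, 1.66 to 4.01), Bhlhe40 (2.61, 1.39 to 4.46), Zeb2 (3.89, 1.43 to 8.47) and Irf4 (1.90, 1.01 to 3.26), and below 1 for Runx3 (0.61, 0.40 to 0.90). For Gzma, granzyme A, the interval of each of the 10 factors spanned 1 in both libraries. Klrg1, a marker of terminal effectors, had 2 UMIs in HC and 0 in NC in all kept cells, so it could not be read. Ratios of genes other than the 10 factors with these read-outs were not computed.

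**Figure D5:**
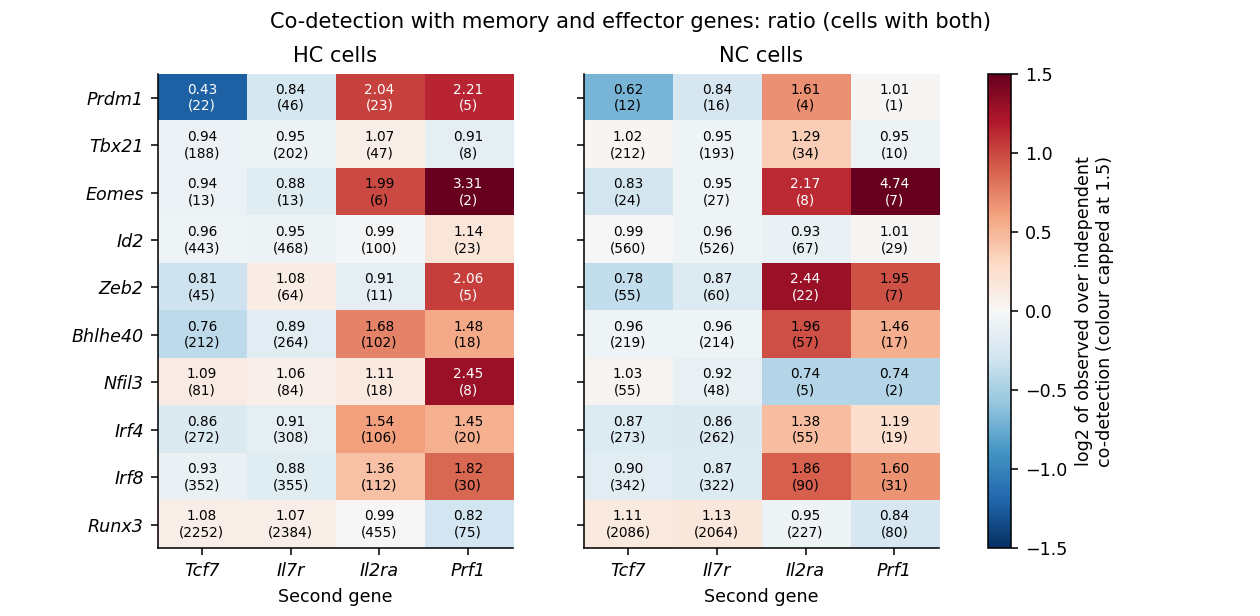
Ratio of observed to independent co-detection of each factor with Tcf7, Il7r, Il2ra and Prf1 in HC and NC cells thinned to 2000 UMIs, with the number of cells holding both in brackets and the log2 ratio as colour. Prdm1 with Tcf7 is at 0.43 in HC, and Bhlhe40, Irf4 and Irf8 with Il2ra are above 1 in both libraries.

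Genes around the factors were listed by pathway, 62 in all, of which 47 reached 5 CPM. By HC over NC, 2 were higher (Batf3 and Il2ra) and 3 lower (Ifng, Id3 and Itgae), with a median log2 ratio of -0.09 beside -0.03 for all genes. Of 7 measured T-box targets 0 were higher and 1 lower, with a median of -0.22. The lower one was Ifng, interferon gamma, with 1.82 CPM in HC and 7.89 CPM in NC (-2.12, -2.34 to -1.90), beside Prf1 at -0.52, Ccl5 at -0.47 and Il2rb at 0.24, while T-bet itself was level. Of 4 measured genes that Blimp-1 represses 0 were higher and 1 lower, with a median of -0.33 beside -0.03 for all genes. They were Id3 at -0.71 (224 CPM in HC and 367 CPM in NC), Myc at -0.39, Tcf7 at -0.26 and Ccr7 at -0.09.

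Id3, an inhibitor of E proteins like Id2 but linked to memory precursors, was the 1 gene of the 4 measured in the ID and E protein list past 1.5-fold, while Tcf3 (0.09), Tcf4 (0.04) and Tcf12 (0.03) stayed near 0. Of 5 AP-1 partners of Irf4, Batf3 was higher in HC at 19.8 CPM against 13.0 CPM in NC (0.60, 0.51 to 0.70), while Jund (-0.08), Batf (0.08) and Junb (0.08) were level. None of the 6 other interferon regulatory factors passed 1.5-fold, from Irf2 at -0.16 to Irf5 at 0.18, with Irf1 at -0.15 and Irf9 at -0.14. Of 6 measured Runx relatives and targets, Itgae, the CD103 integrin chain, was lower in HC (12.9 CPM against 24.9 CPM in NC, -0.95). Cd8a was at -0.54, Zbtb7b at 0.48 and Cbfb, the Runx partner subunit, at -0.22, so Cd8a and Itgae were below 0 where Runx3 was above it.

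Of the 6 measured memory factors none passed 1.5-fold, with Myb at -0.43, Bach2 at -0.35, Klf2 at 0.28 and Tcf7 at -0.26. Of 8 cytokine receptor and signalling genes, Il2ra was higher in HC at 49.5 CPM against 29.7 CPM in NC (0.74, 0.67 to 0.80), beside Il12rb2 at 0.28, Il2rb at 0.24 and Stat5a at -0.24. The 3 measured clock genes Dbp (-0.23), Per1 (-0.11) and Rora (0.13), kin or targets of Nfil3 and Bhlhe40, did not pass, nor did Zeb1 (0.02), the paralogue of Zeb2.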

How the data were processed

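The deposited files hold raw whole-number counts, that is UMIs for each gene in each barcode. Per the file headers, the matrices were written by Cell Ranger 6.1.2. Per the submitters' processing notes, build mm10, Seurat 3.2.3 and Cell Ranger 5.0.0 were used, in no stated order. How barcodes were retained, and which annotation release was used, is not given in the sources used here. Doublets were not removed. From these counts, CPM, shares, log2 ratios and co-detection ratios were computed in Python 3.11.15 (numpy 2.4.6, scipy 1.17.1, pandas 2.3.3), and figures were drawn with matplotlib 3.10.9. CPM carry exact Poisson intervals, shares Clopper-Pearson intervals, log2 ratios exact conditional binomial intervals and co-detection ratios exact Poisson intervals on the observed cells, with no pseudocount. With 1 library per group no test was run and no replicate error exists. Classes by Gzmb, Mki67 and Bnip3 need at least 1 UMI after thinning, while levels within them use all UMIs of their cells. A count of 0 allows up to 0.0262 CPM in HC and 0.0259 CPM in NC (3 counts of the total). Every member is reported, and 1 further read-out gene of co-detection is not reported here. From each list the genes with the largest absolute log2 ratio among those of at least 5 CPM are named, up to 4. Members and lists were chosen with earlier results of these data known. Alternatives tried were scaling by TMM (edgeR 4.0.16) or DESeq2 1.42.0 size factors, totals without mitochondrial and ribosomal genes, equal weight per cell, other cell filters, left-out cells, other folds, floors and thinning depths, and equal class mixes. Leaving out B cell barcodes, leaving out barcodes found in both libraries and a second thinning were added after seeing the data. The scripts were tested on simulated data. Promoter coordinates and start sites come from RefSeq tables of GRCm38.p6, the assembly that mm10 is built from.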

Additional observations from a re-analysis of the deposited data

How the results depend on the processing

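No paired analysis was possible because each group had 1 library. No result changed sign past its line under any alternative run, although Id2, Irf4 and Irf8, close to 0, took either sign. Of the counts that answer a comparison, 96 were equal to the main count or within 1.5-fold of it, and 34 moved further. Changes inside that margin are not listed below. Among them, Bhlhe40 joined the members higher in HC under 4 alternatives. These were TMM scaling, totals without mitochondrial and ribosomal genes, the stricter cell filter, and leaving out cells with Nr4a1, Nr4a3, Egr1 or Egr2. Of members higher in HC (2), 1 remained at 2-fold and 0 passed a floor of 20 CPM. Also 0 passed without cells with a Mki67 UMI at full depth, where Prdm1 had 3.54 CPM in HC and 1.26 CPM in NC. Members lower (0) became 1, Eomes, without mitochondrial and ribosomal genes in the total or with no floor. Partner genes higher (2) became 0 at 2-fold and 1 without cells with Nr4a1, Nr4a3, Egr1 or Egr2, and lower (3) became 1 at 2-fold. By Gzmb, members higher in HC (2) became 4 at 2 or more UMIs of 4000 and 1 at 2-fold, and in NC (2) became 5 at 2 or more UMIs and 0 at 2-fold, at 4000 UMIs and without thinning. By Mki67 in HC, 0 became 1 at 4000 UMIs, without thinning, at 2 or more UMIs and with thinned levels. By Bnip3, members higher in HC (1) became 2 without thinning, 3 at 2 or more UMIs, 5 with thinned levels, 2 without the 5% of cells with most UMIs and 0 at 2-fold. In NC, Bnip3 classes gave 2 higher and 2 lower at 2 or more UMIs, 1 higher and 1 lower with thinned levels and 1 higher without the deepest 5%, in place of 0. Pairs with an interval above 1 in HC (2) became 4 at 4000 UMIs, 1 within the 8 classes, 4 without the deepest 5% and 1 without cells with Nr4a1, Nr4a3, Egr1 or Egr2. In NC (5) they became 9 at 4000 UMIs and 2 without those cells. The causes were not tested. Prdm1 stayed between 1.18 and 1.55, above 1.5-fold under 13 of 13 alternatives to the level, and Eomes between -1.20 and -0.76, below it under 13 of 13. Depth limits the shares of Prdm1, Eomes, Nfil3 and Zeb2, since few cells held more than 1 UMI of any of them.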

Other observations

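Cells with a UMI of Nr4a1, Nr4a3, Egr1 or Egr2, genes induced within minutes to hours of antigen receptor signalling, were 16.1% of HC cells and 21.8% of NC cells. Irf8 had 66.8 CPM with such a UMI and 41.2 CPM without in HC (log2 ratio 0.70, 0.61 to 0.78), and 68.6 and 36.8 CPM in NC (0.90, 0.82 to 0.98). Tbx21 had log2 ratios of 0.83 (0.70 to 0.95) in HC and 0.61 (0.49 to 0.72) in NC, Bhlhe40 0.71 in both, and Irf4 0.37 in HC and 0.59 in NC. Prdm1 was at -0.37 in both libraries, with an interval of -0.67 to -0.07 in HC and -0.82 to 0.05 in NC, and Runx3 at -0.15 in HC and -0.34 in NC.

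Over the 13 sums of at least 100 cells by library and class, 5086 genes of at least 20 CPM were ranked by the Pearson correlation of their log2 CPM with each factor. The closest were Park7 (0.99) and Zbtb32 (0.97) for Prdm1, Mt1 (0.97) and Ccdc58 (0.95) for Bhlhe40, Cisd3 (0.94) and Mgst3 (0.93) for Nfil3, and the ribosomal protein genes Rpl3 and Rpl8 (0.97 each) for Runx3. For Irf8 they were Ccdc115 and Slamf7 (0.90 each), for Irf4 Crem (0.88) and Psmc6 (0.86), for Eomes Plekhj1 and Ubxn4 (0.89 each), for Zeb2 Atf4 (0.89) and Rrp7a (0.85), for Id2 Dcaf1 (0.88) and Rasa2 (0.87), and for Tbx21 Vta1 (0.81) and Fam120a (0.78). These are descriptions, since the sums share libraries and classes, and the smallest held 1 UMI of Prdm1 and 2 of Eomes.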
